A study of Mus musculus with 6 samples.

Results

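The 45 genes described here encode the parts of the standard proteasome and the proteins that activate, assemble or inhibit it. They are the protein-coding genes whose GENCODE symbol runs from *Psma* to *Psmg* with a number, without the immunoproteasome genes *Psmb8*, *Psmb9* and *Psmb10*, and they are 45 of the 54331 genes in the deposited table. RNA was sequenced from mouse embryonic fibroblasts (MEFs) undergoing reprogramming to induced pluripotent stem cells. The MEFs came from male E13.5 embryos, several of which were mixed, of a mouse carrying an *Oct4*-EGFP transgene on a mixed C57BL/6, DBA/2 and ICR background. Both groups had received retroviruses for Oct4, Sox2 and Klf4 and for AKT-MER, a fusion of myristoylated AKT with a modified estrogen receptor that stays inactive until 4-hydroxytamoxifen (4OHT) binds it. From 3 days postinfection (dpi), 3 wells received 4OHT (OSKA + 4OHT group, AKT-activated cells) and 3 wells received the ethanol vehicle (OSKA − 4OHT group), and RNA was taken at 10 dpi. The comparison asks how AKT activation during reprogramming goes with the transcript levels of the proteasome genes. All sequenced cells had received AKT-MER, so an effect of 4OHT itself cannot be told apart from AKT activation in these libraries. From colony counts and microarrays at an earlier day, the paper judged the effects of 4OHT on cells without AKT-MER to be limited. All wells were split from transduced cells at 3 dpi, so the p-values measure the spread between wells and not between independent transductions.

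The proteasome is the protease that breaks down ubiquitin-tagged proteins. Its core is a barrel of stacked rings. The outer rings are built of alpha subunits (*Psma*) and form the gate, and the inner rings are built of beta subunits (*Psmb*), a few of which carry the proteolytic sites. The regulatory particle caps the barrel. Its base holds a ring of ATPases (*Psmc*) that unfold the substrate, and its lid removes the ubiquitin chain (*Psmd*). Other caps, the PA28 proteins (*Psme1*, *Psme2*, *Psme3*) and PA200 (*Psme4*), open the gate without ATP. The transcription factor NRF1 (*Nfe2l1*) is known to drive the subunit genes together through antioxidant response elements, and interferon is known to induce *Psme1*, *Psme2* and the immunoproteasome genes. Pluripotent stem cells are known for high proteasome activity.

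Promoter sequence is shown for both of these routes. A RefSeq window of 300 bases (250 before and 50 after the start, GRCm38.p6) was found for 37 of the 45 genes and searched on both strands. The core of the interferon-stimulated response element (GAAA, any 2 bases, GAAA) was present in 5 of the 37 windows, against 3.94% of the windows of 17492 protein-coding genes. These 5 sites are printed 5′ to 3′ on the strand of the gene, with the matched bases in capitals, because they are all the matches to this motif among the 37 genes and include an activator.
*Psme1*, chr14:55578493-55578522, plus strand: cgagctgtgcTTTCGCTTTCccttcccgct
*Psmg4*, chr13:34162969-34162998, plus strand: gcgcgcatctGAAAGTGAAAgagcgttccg
*Psmd4*, chr3:95042675-95042704, minus strand: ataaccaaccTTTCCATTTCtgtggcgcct
*Psmb3*, chr11:97703261-97703290, plus strand: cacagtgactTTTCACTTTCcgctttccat
*Psmd9*, chr5:123228021-123228050, plus strand: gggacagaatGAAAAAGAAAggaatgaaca
The match began at base 10 of the RefSeq transcript in *Psme1* and at base 16 in *Psmg4*, and it began 80, 163 and 159 bases before the RefSeq start in *Psmd4*, *Psmb3* and *Psmd9*. The log2 fold changes of these 5 genes were 1.49 for *Psmg4*, 0.69 for *Psme1*, 0.65 for *Psmd4*, 0.22 for *Psmb3* and 0.20 for *Psmd9*, and *Psme2*, whose window holds no such core, was at 0.78. The antioxidant response element core, TGACNNNGC, was present in 6 windows (16.2%), against 14.8% of all protein-coding windows. The sites of the 4 genes in which it began within 50 bases before the start are shown in the same way, since they include 2 of the genes for the catalytic subunits.
*Psmb6*, chr11:70525338-70525367, plus strand: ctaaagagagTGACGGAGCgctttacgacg
*Psmb5*, chr14:54618023-54618052, minus strand: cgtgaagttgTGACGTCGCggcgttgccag
*Psme4*, chr11:30771758-30771787, plus strand: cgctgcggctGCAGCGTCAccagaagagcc
*Psmd9*, chr5:123228149-123228178, plus strand: atctagccggTGACCCCGCccacttccaag
The other genes with this core were *Psmd12* and *Psmc6*. Of the genes whose sites are printed, the RefSeq start lies inside the GENCODE gene in *Psme1*, *Psmb3*, *Psmb5* and *Psme4* and far inside it in *Psmd9*, and ahead of it in *Psmb6*, so these distances hold for the RefSeq start. The GAS core TTCNNNGAA was found in 2 of the 37 windows (5.41%, against 8.92% of all), the CCAAT box in 13 (35.1%, against 42.3%) and the GC box GGGCGG in 22 (59.5%, against 49.2%). None of these motifs contains another, and a match of letters is a description of the window, not of binding.

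The values are in TPM, a share of all transcripts scaled by transcript length that sums to 1000000 in each library, so sequencing depth is not kept. The OSKA − 4OHT libraries had 15814 to 17692 genes above 0, and the OSKA + 4OHT libraries had 17578 to 18230. The test was limma-trend on log2(TPM + 0.5) across the 15382 genes whose mean reached 1 TPM, and "called" means a Benjamini-Hochberg adjusted p under 0.05 over all of them. Log2 fold changes are OSKA + 4OHT minus OSKA − 4OHT on that scale. Of the 45 genes, 43 entered the test. *Psma8*, the alpha subunit known from testis, was listed at 0, 0.820 and 0 TPM without 4OHT (replicates 1, 2 and 3, as in all such triplets) and at 0.464, 0 and 0 TPM with 4OHT. *Psmb11*, the beta subunit known from the thymic cortex, was at 0, 0.123 and 0 TPM and at 0.392, 0.125 and 0.149 TPM. Neither reached 1 TPM in any library.

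The 43 genes lay mostly, and modestly, above the OSKA − 4OHT level in AKT-activated cells. The log2 fold change was above 0 in 39 of them, against 59.3% of all tested genes, and it was above 0 in 37 of them once libraries were rescaled by a trimmed mean of M-values (TMM) and in 39 after quantile normalization. The median over the 43 genes was 0.33, a ratio of 1.26, while the median over all tested genes was 0.14. With TMM scaling these medians were 0.20 and 0.02. Their changes were also narrowly spread, with the middle 50% between 0.24 and 0.51, against -0.27 to 0.59 for all tested genes, and 12 of the 43 genes exceeded 0.5, against 4427 of the 15382. Only 2 genes were called, both higher: *Psma7*, an alpha subunit, and *Psmd5*, an assembly chaperone of the base. That is 4.65% of the 43 genes, against 3.52% of all tested genes called higher, so the share called was near that of the background. Neither had a log2 fold change above 1, which 2.87% of all tested genes had together with a call. None was called lower, against 1.97% of all tested genes. With the unadjusted p under 0.05, 17 of the 43 genes (39.5%) were higher and 0 lower, against 14.1% and 7.18% of all tested genes, and the 17 became 9 with TMM scaling and 10 without the mean-variance trend. Leaving out 1 library moved the log2 fold change by over 1.5 times in 20 of the 43 genes, and the furthest of these values stand beside the genes. Every OSKA + 4OHT library was above every OSKA − 4OHT library in 24 genes (55.8%), against 18.1% of all tested genes, and no member had the opposite order, against 10.0%. After TMM scaling the groups did not overlap in 18 of the 43 genes (41.9%), again with the OSKA + 4OHT libraries above, against 14.1% of all tested genes. The comparison with all tested genes was not matched for level. Of the 15382 genes, 11035 had a mean of at least 5 TPM. The 31 tested core, base and lid genes had means of 65.3 to 213 TPM. The part of level in the spread and in these shares was not tested. In unsorted cultures, fewer cells of a type and less RNA per cell cannot be told apart.

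**Figure D1:**
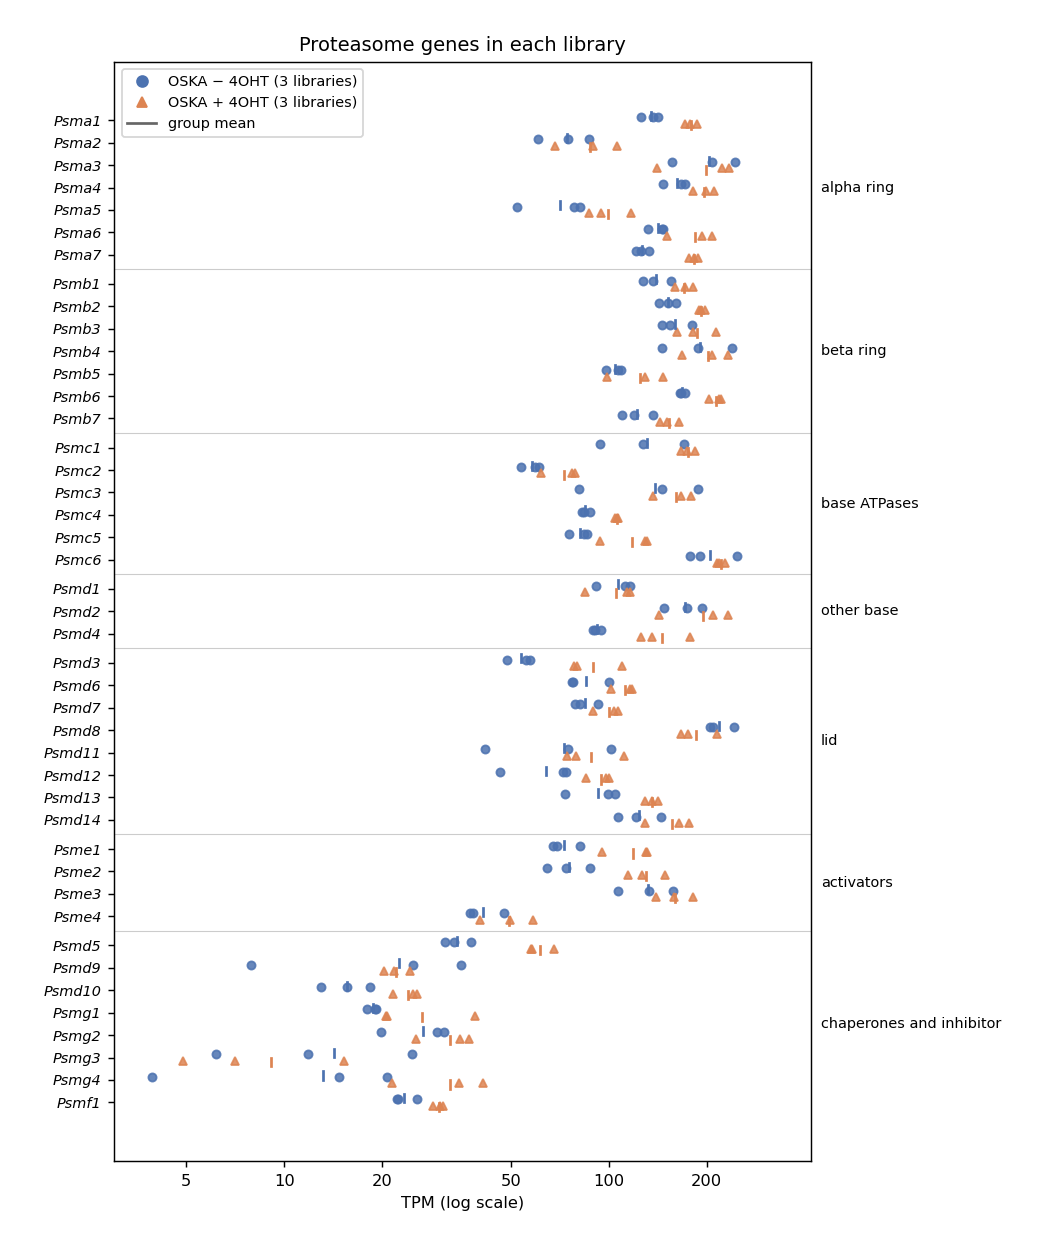
TPM of the 43 tested proteasome genes in each library on a log axis, by part of the proteasome, with circles for OSKA − 4OHT libraries, triangles for OSKA + 4OHT libraries and short lines for the group means. The chaperones and the inhibitor lie below most core, base and lid genes, and in 24 genes all triangles lie to the right of all circles.

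The summed TPM of the 45 genes was 4351, 4318 and 4243 without 4OHT and 5208, 5598 and 5188 with it. The groups did not overlap, and the mean was 23.9% higher in the AKT-activated cells, at 5331 ± 232 TPM against 4304 ± 55.4 TPM (SD, n = 3 each). These genes together made up 0.430% of the TPM in the OSKA − 4OHT group and 0.533% in the OSKA + 4OHT group. The sums of all 7 parts (alpha ring, beta ring, base ATPases, other base subunits, lid, activators, and chaperones with the inhibitor) were higher in every OSKA + 4OHT library than in any OSKA − 4OHT library. After TMM scaling the total was 13.05% higher and still did not overlap, and of the 7 parts only the activators and the chaperones with the inhibitor remained without overlap. In each library the 43 genes were described by their median distance from the mean over the 6 libraries. This distance was -0.18, -0.19 and -0.16 on the log2 scale in the OSKA − 4OHT libraries and 0.17, 0.26 and 0.10 in the OSKA + 4OHT libraries. For all tested genes it was -0.11, -0.06 and -0.08 and then 0.11, 0.11 and -0.05. OSKA + 4OHT replicate 2 held the highest value of 17 of the 43 genes, replicate 3 of 11 and replicate 1 of 8, and the OSKA − 4OHT libraries held the highest value of 2, 2 and 3 genes.

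**Figure D2:**
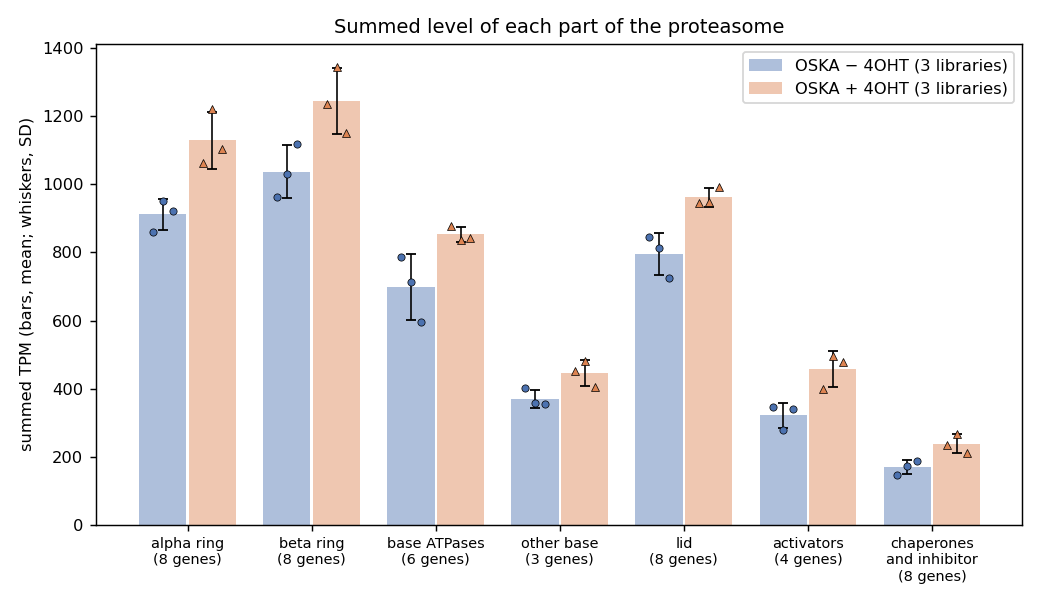
Summed TPM of each part of the proteasome in each library (points), with the mean (bars) and SD (whiskers) of the 3 libraries of each group. In all 7 parts the OSKA + 4OHT libraries lie above the OSKA − 4OHT libraries.

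**Figure D3:**
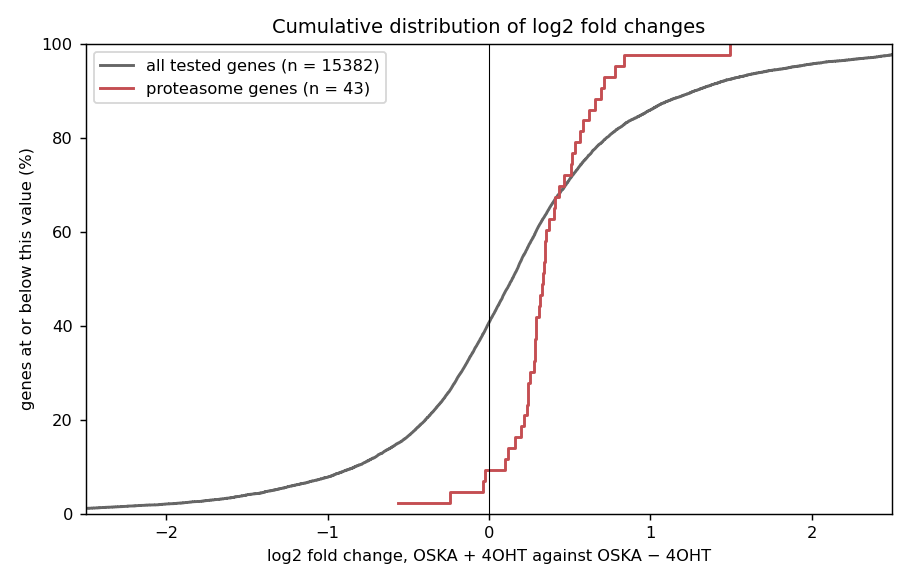
Cumulative share (%) of all 15382 tested genes and of the 43 proteasome genes at or below each log2 fold change, on the log2(TPM + 0.5) scale. The curve of the proteasome genes starts further right and is steeper, with a median of 0.33 against 0.14.

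In the alpha ring, 6 of 7 tested genes had a log2 fold change above 0, 5 did not overlap between the groups and 1 was called. Over all tested genes, 59.3% were above 0, 18.1% did not overlap with the OSKA + 4OHT libraries above, and 3.52% were called higher. *Psma7* (chromosome 2, 180036374 to 180042433, minus strand, GRCm38) was at 121, 125 and 133 TPM without 4OHT and at 177, 183 and 188 TPM with it. The libraries within a group were close together and the groups were far apart. Its log2 fold change was 0.53 (standard error 0.108, adjusted p = 0.0451). Over the 14 alternative settings its adjusted p ran from 0.0390 to 0.148, and it stayed called in 3 of them and in none of the 6 that left out 1 library. *Psma1* had the next smallest p in this ring, with a log2 fold change of 0.41 and an adjusted p of 0.0997. *Psma4*, *Psma5* and *Psma6* also did not overlap between the groups, with log2 fold changes of 0.28, 0.51 and 0.37, and *Psma5* was at 0.31 without OSKA − 4OHT replicate 1. *Psma2* overlapped, at 0.23, which ran from 0.09 without OSKA + 4OHT replicate 2 to 0.40 without OSKA + 4OHT replicate 3. The pseudogene *Gm12989*, at most 27.98 TPM in a library but 4.66 TPM on average, is 97.55% identical to *Psma5* over 734 bases, so *Psma5* is uncertain in part. *Psma3* had a log2 fold change of -0.04, which ran from -0.21 to 0.20 when 1 library was left out. It was at 156, 245 and 208 TPM and at 141, 235 and 223 TPM, and the groups overlapped almost fully. Its values are uncertain, because the processed pseudogene *Gm13835* is identical to a *Psma3* transcript over 665 bases and is listed at a mean of 138.4 TPM, which is 68.7% of *Psma3*, so the quantification could have split the reads.

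In the beta ring all 7 tested genes had a log2 fold change above 0, although *Psmb4* was at -0.03 after TMM scaling. Of the 7 genes, 4 did not overlap between the groups, against 18.1% of all tested genes with the OSKA + 4OHT libraries above. None was called. The catalytic subunits are *Psmb6* (caspase-like site), *Psmb7* (trypsin-like site) and *Psmb5* (chymotrypsin-like site). *Psmb6* was at 167, 165 and 171 TPM and at 203, 218 and 221 TPM. Its groups did not overlap, and its log2 fold change was 0.35 (standard error 0.103, adjusted p = 0.116). *Psmb7* was at 110, 137 and 119.7 TPM and at 152, 164 and 144 TPM, without overlap, with a log2 fold change of 0.33 (adjusted p = 0.226). *Psmb5* was at 98.3, 106 and 109 TPM and at 129, 147 and 98.95 TPM. Replicate 3 of the OSKA + 4OHT group fell within the OSKA − 4OHT range, and the log2 fold change was 0.24 (adjusted p = 0.497; 0.11 without OSKA + 4OHT replicate 2 and 0.40 without OSKA + 4OHT replicate 3). *Psmb2* and *Psmb1*, which are not proteolytic, also did not overlap, with log2 fold changes of 0.34 and 0.29. The changes of *Psmb6*, *Psmb2* and *Psmb7* were close, and their order was not the same in every fit that left out 1 library. *Psmb3* overlapped, at 0.22 (0.11 without OSKA + 4OHT replicate 2). *Psmb4* was at 146, 188 and 240.3 TPM and at 207, 232 and 168 TPM, with a wide overlap and a log2 fold change of 0.10 that ran from -0.08 to 0.28 when 1 library was left out. Over the 14 tested genes of the core the median log2 fold change was 0.31, and 0.18 with TMM scaling.

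In the base, the 6 ATPase genes had log2 fold changes from 0.12 to 0.51, with 3 that did not overlap (*Psmc2*, *Psmc4* and *Psmc5*) and none called. Over all tested genes, 18.1% did not overlap with the OSKA + 4OHT libraries above. *Psmc5* was at 85.7, 75.3 and 84.1 TPM and at 131, 129 and 93.7 TPM, or 0.51 on the log2 scale (standard error 0.172, adjusted p = 0.154). Replicate 3 of the OSKA + 4OHT group was much nearer to the OSKA − 4OHT libraries than the other two. *Psmc6* was at 248, 178 and 190.2 TPM and at 216, 219 and 228 TPM. The first OSKA − 4OHT library was above all OSKA + 4OHT libraries, and the log2 fold change of 0.12 became -0.01 after TMM scaling and was 0.02 without OSKA − 4OHT replicate 2 and 0.26 without OSKA − 4OHT replicate 1. *Psmc4* was steady within the groups, at 83.6, 82.9 and 87.6 TPM and at 104, 106 and 107 TPM, with a log2 fold change of 0.32 (adjusted p = 0.173). *Psmc1* and *Psmc3* overlapped between the groups, at 0.46 and 0.29. Both rested on OSKA − 4OHT replicate 3, without which they were at 0.25 and -0.05, and *Psmc3* was at 0.56 without OSKA − 4OHT replicate 2. Of the other base subunits, *Psmd4*, a ubiquitin receptor (chromosome 3, 95032694 to 95042614), was at 94.6, 90.9 and 89.3 TPM and at 125, 135 and 178 TPM. All OSKA + 4OHT libraries were above the OSKA − 4OHT libraries, which were close to each other. Its log2 fold change was 0.65 (standard error 0.162, adjusted p = 0.0736). The scaffold genes *Psmd1* and *Psmd2*, which hold the ubiquitin receptors and shuttle factors, overlapped between the groups, with log2 fold changes of -0.03 (-0.13 to 0.12 when 1 library was left out) and 0.16 (0.02 without OSKA + 4OHT replicate 2 and 0.37 without OSKA + 4OHT replicate 3). *Psmd1* was at 112, 91.4 and 116 TPM and at 116, 114 and 84.6 TPM.

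In the lid, 7 of 8 genes had a log2 fold change above 0, 4 did not overlap and none was called. The shares over all tested genes were 59.3% above 0 and 18.1% without overlap and with the OSKA + 4OHT libraries above. *Psmd3* (chromosome 11, 98682554 to 98695979) was at 55.6, 57.2 and 48.4 TPM and at 79.7, 78 and 109.8 TPM. The groups did not overlap, with a log2 difference of 0.71 (standard error 0.181, adjusted p = 0.0787) that became 0.55 without OSKA + 4OHT replicate 3, below those of *Psmd12* and *Psmd13* in the same fit. *Psmd12*, *Psmd13* and *Psmd6* also did not overlap, with log2 fold changes of 0.58, 0.57 and 0.41, and *Psmd12* was at 0.37 without OSKA − 4OHT replicate 3. *Psmd14*, the deubiquitinating enzyme of the lid, was at 145, 121 and 106.5 TPM and at 165, 129 and 176 TPM. Its second OSKA + 4OHT library lay within the OSKA − 4OHT range, and its log2 fold change was 0.33 (adjusted p = 0.352). *Psmd7* and *Psmd11* also overlapped, at 0.24 and 0.35, and the latter ran from -0.0072 without OSKA − 4OHT replicate 3 to 0.63 without OSKA − 4OHT replicate 2. *Psmd8* was the lid gene with the opposite sign. It was at 243, 205 and 209 TPM and at 175, 167 and 215 TPM, so that only replicate 3 of the OSKA + 4OHT group overlapped the OSKA − 4OHT range, and the log2 fold change was -0.24 (adjusted p = 0.3996). Over the 17 genes of base and lid the median log2 fold change was 0.33, and it was 0.20 with TMM scaling and 0.24 with quantile normalization.

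**Figure D4:**
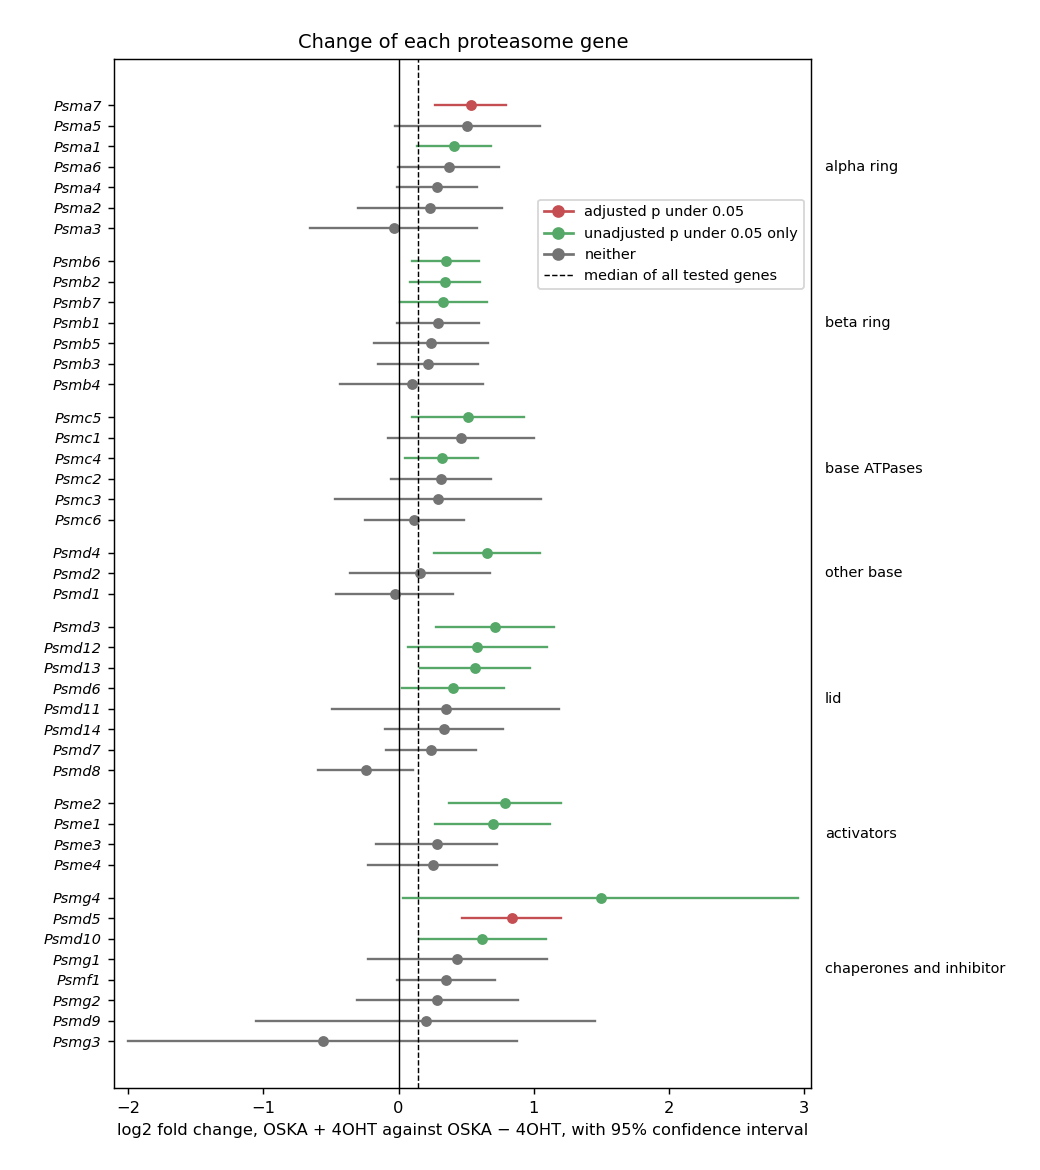
Log2 fold change (points) with 95% confidence interval (bars) of the 43 tested proteasome genes, by part. Red marks the genes called at an adjusted p under 0.05 (*Psma7* and *Psmd5*), green those with only an unadjusted p under 0.05, grey the others, and the dashed line the median of all tested genes, 0.14.

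Among the activators, the paired PA28 subunit genes *Psme1* and *Psme2* had the largest log2 fold changes, and *Psme3* and *Psme4* had smaller ones. The median of the 4 genes was 0.49. *Psme1* (chromosome 14, 55578123 to 55581529, plus strand), was at 67.4, 69.3 and 81.2 TPM without 4OHT and at 95.1, 130.4 and 130.7 TPM with it. *Psme2* (chromosome 14, 55587441 to 55591113, minus strand) was at 73.9, 64.6 and 87.6 TPM and at 114, 149 and 127 TPM. For both genes the groups did not overlap. The log2 fold change was 0.69 for *Psme1* (standard error 0.176, adjusted p = 0.0779) and 0.78 for *Psme2* (standard error 0.172, adjusted p = 0.0545), so neither was called at 0.05. Over the 14 alternatives the adjusted p of *Psme2* ran from 0.0452 to 0.172 and passed in 1 of them, and that of *Psme1* ran from 0.0670 to 0.226 and passed in none. The genes are neighbours, 5911 bases apart, and their TPM added up to 148 ± 18.4 without 4OHT and 249 ± 35.6 with it (SD, n = 3 each). The ratio of *Psme1* to *Psme2*, whose products form one ring, was 0.970 ± 0.0893 and 0.913 ± 0.105. *Psme2b*, a close copy of *Psme2* with 99.4% identity over 794 bases, was listed at a mean of 2.78 TPM, or 2.70% of *Psme2*. *Psme3*, the nuclear PA28 subunit, was at 157, 107 and 133 TPM and at 139.6, 159 and 181 TPM. *Psme4*, or PA200, was at 47.7, 38.2 and 37.4 TPM and at 49.6, 58.5 and 40.02 TPM. Both overlapped between the groups, with log2 fold changes of 0.28 (adjusted p = 0.447; 0.14 without OSKA − 4OHT replicate 2 and 0.19 without OSKA + 4OHT replicate 3) and 0.25 (adjusted p = 0.529; 0.12 without OSKA + 4OHT replicate 2 and 0.40 without OSKA + 4OHT replicate 3).

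The activators were also set against the core of the same library, and of the 4 genes *Psme2* alone separated the groups in this ratio. The TPM of *Psme1* was 0.512 ± 0.0445 times the median TPM of the core subunits in the OSKA − 4OHT group and 0.679 ± 0.124 times in the OSKA + 4OHT group, and that of *Psme2* was 0.532 ± 0.0759 and 0.740 ± 0.0749 times (SD, n = 3 each). For *Psme2* the 3 ratios of each group did not overlap, at 0.531, 0.456 and 0.608 against 0.656, 0.799 and 0.766. For *Psme1* they did, since replicate 1 of the OSKA + 4OHT group was at 0.546 and replicate 3 of the OSKA − 4OHT group at 0.564. The ratios of *Psme3* were 0.935 ± 0.188 and 0.916 ± 0.158, and those of *Psme4* were 0.291 ± 0.0451 and 0.280 ± 0.0363. With 3 libraries against 3, an exact permutation test of such a ratio cannot give a 2-sided p under 0.1.

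The immunoproteasome genes, which encode catalytic subunits that replace the standard ones and were left out of the rule, had low and scattered levels. *Psmb8*, the counterpart of *Psmb5*, was at 6.12, 9.71 and 3.14 TPM and at 8.59, 14.1 and 33.4 TPM. *Psmb9*, the counterpart of *Psmb6*, was at 3.78, 0.540 and 0 TPM and at 4.81, 5.80 and 15.7 TPM. *Psmb10*, the counterpart of *Psmb7*, was at 27.8, 13.6 and 10.5 TPM and at 15.4, 15.1 and 17.6 TPM. The groups did not overlap for *Psmb9* alone, replicate 3 of the OSKA + 4OHT group was the highest for *Psmb8* and *Psmb9*, and none of the 3 was called (log2 fold changes 1.39 with adjusted p = 0.236, 2.64 with adjusted p = 0.149 and 0.01; that of *Psmb8* was 0.88 without OSKA + 4OHT replicate 3 and that of *Psmb10* was -0.12 after TMM scaling). *Psmb8* was at 6.08 ± 3.12% of *Psmb5* in the OSKA − 4OHT group and at 16.6 ± 14.9% in the OSKA + 4OHT group, *Psmb9* at 0.862 ± 1.22% and 4.05 ± 2.65% of *Psmb6*, and *Psmb10* at 14.7 ± 9.27% and 10.5 ± 1.56% of *Psmb7* (SD, n = 3 each). The 3 percentages of each group overlapped for *Psmb8* and *Psmb10*. The standard catalytic subunits had the larger TPM in every library.

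**Figure D5:**
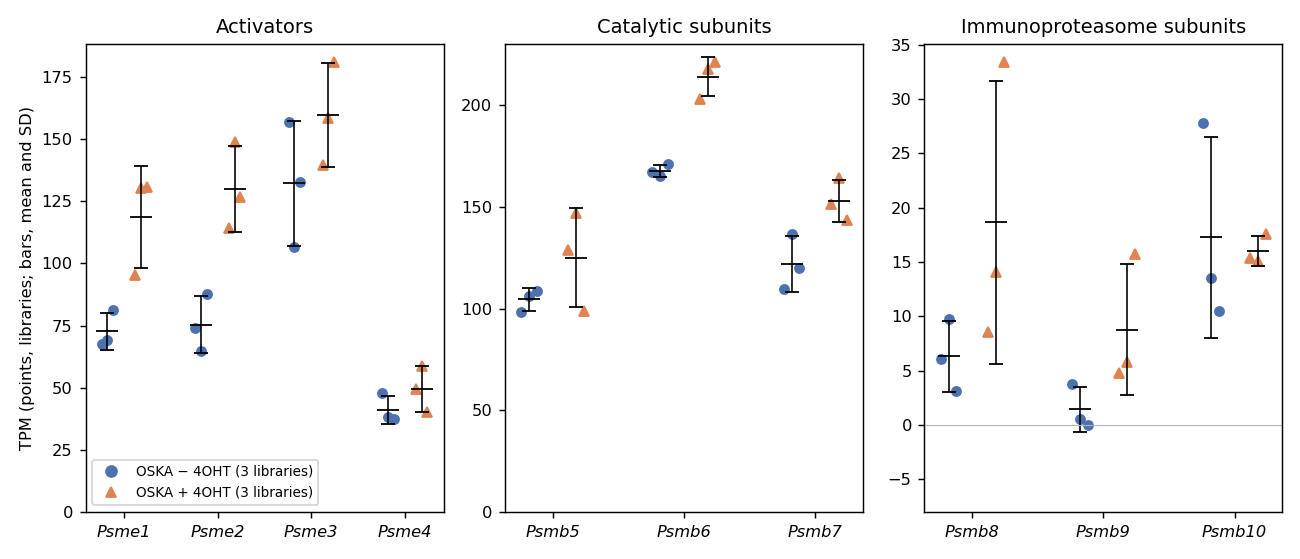
TPM per library (points) with the mean and SD (n = 3) for the activator genes, the catalytic subunits of the core and their immunoproteasome counterparts. *Psme1*, *Psme2*, *Psmb6* and *Psmb7* separate the groups, while *Psme3*, *Psme4* and *Psmb5* overlap.

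The assembly genes were expressed below the subunits. *Psmd5* (chromosome 2, 34849734 to 34874968, minus strand), *Psmd9* and *Psmd10* encode chaperones of the base, *Psmg1* to *Psmg4* encode chaperones of the core, and *Psmf1* encodes the inhibitor PI31. *Psmd5* was at 37.7, 31.2 and 33.4 TPM without 4OHT and at 58.1, 57.7 and 67.9 TPM with it. The groups were far apart, with a log2 difference of 0.84 (standard error 0.153, adjusted p = 0.0335). It stayed called in 4 of the 14 alternatives and in none that left out 1 library, over an adjusted p of 0.0261 to 0.125. *Psmg4* had the largest fold change of the 43 genes, 1.49 (standard error 0.606, adjusted p = 0.226), but without OSKA − 4OHT replicate 3 it was 0.82, below that of *Psme2* in the same fit (0.90). It was at 20.8, 14.8 and 3.91 TPM and at 34.6, 41.1 and 21.5 TPM, so that replicate 3 stood low in both groups and, with 4OHT, was close to replicate 1 without it. *Psmd10*, *Psmg1* and *Psmf1* also did not overlap between the groups, with log2 fold changes of 0.62, 0.43 and 0.35, and *Psmg1* was at 0.14 without OSKA + 4OHT replicate 2. *Psmg2* overlapped, at 0.29, which ran from 0.09 without OSKA − 4OHT replicate 1 to 0.45 without OSKA + 4OHT replicate 3. *Psmd9* varied among the OSKA − 4OHT libraries, at 7.92, 24.9 and 34.9 TPM, against 21.8, 24.4 and 20.3 TPM, and its log2 fold change of 0.20 ran from -0.41 to 0.63 when 1 library was left out. *Psmg3* had the lowest fold change of the 43 genes, -0.56 (standard error 0.595, adjusted p = 0.626), which ran from -1.03 to -0.07 when 1 library was left out and was not the lowest without replicate 3 of either group. It was at 6.17, 11.8 and 24.8 TPM and at 7.08, 15.3 and 4.89 TPM. The protein-coding gene *Gm26938*, at most 11.7 TPM in a library but 1.94 TPM on average, is identical to *Psmg3* over 238 bases, so *Psmg3* is uncertain too.

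The subunits that assemble into the core, base and lid had mean levels within a 3.26-fold range, from *Psmc2* at 65.3 TPM to *Psmc6* at 213 TPM over the 31 tested genes. In the alpha ring the range ran from *Psma2* at 80.96 TPM to *Psma3* at 201 TPM, and in the beta ring from *Psmb5* at 115 TPM to *Psmb4* at 197 TPM. The coefficient of variation between the 3 libraries of a group had a median of 12.3% over the 43 genes in the OSKA − 4OHT group and 13.6% in the OSKA + 4OHT group. The 45 genes lie on 16 chromosomes, with 8 on chromosome 11 and 6 on chromosome 14.

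Other genes of the pathway did not all follow the subunits. Of 11 further subunits and associated factors, 6 had a log2 fold change above 0, 3 had an unadjusted p under 0.05 and were higher (*Adrm1*, *Uchl5* and *Fbxo7*), and none was called. Over all tested genes, 59.3% were above 0, 14.1% were higher at an unadjusted p under 0.05, and 1.97% were called lower. *Adrm1*, a ubiquitin receptor of the base, was at 36.3, 44.1 and 29.0 TPM and at 96.2, 50.8 and 53.9 TPM, with a log2 difference of 0.83 (adjusted p = 0.178) that became 0.53 without OSKA + 4OHT replicate 1. Of 9 genes for the transcription factors of the proteasome genes and the processing of NRF1, 4 were above 0 and 1 was called, lower. This was *Mafk*, a small Maf protein that pairs with NRF1 and NRF2, at 34.6, 34.3 and 25.2 TPM without 4OHT and at 10.9, 10.3 and 10.01 TPM with it. Its log2 fold change was -1.53 (standard error 0.194, adjusted p = 0.0116). It stayed called in 10 of the 14 alternatives and in 3 of the 6 that left out 1 library, over an adjusted p of 0.00807 to 0.0730, and the call was lost without OSKA − 4OHT replicate 2, OSKA + 4OHT replicate 1 or OSKA + 4OHT replicate 2. *Maff*, another small Maf gene, had a log2 fold change of -1.12 with an adjusted p of 0.0501, which ran from 0.0282 to 0.140 over the 14 alternatives and passed in 3 of them and in none that left out 1 library. *Nfe2l1* itself, which encodes NRF1, was at 215, 168 and 93.0 TPM and at 104, 156 and 172 TPM, with full overlap and a log2 fold change of -0.09. That fold change ran from -0.43 to 0.17 when 1 library was left out. *Nfe2l2*, which encodes NRF2, was at 81.3, 76.6 and 87.2 TPM and at 115, 109 and 114 TPM. The groups did not overlap and its log2 fold change was 0.47 (adjusted p = 0.0797). *Nfe2l3*, which encodes the related NRF3, and *Vcp*, the ATPase that draws NRF1 out of the membrane of the endoplasmic reticulum, had every OSKA + 4OHT library below the other group, with log2 fold changes of -0.52 (adjusted p = 0.185) and -0.35 (adjusted p = 0.156). *Vcp* passed in 1 of the 14 alternatives, TMM scaling, with an adjusted p of 0.0471. In this list the groups did not overlap in 4 of the 9 genes with the OSKA + 4OHT libraries below, against 10.0% of all tested genes, and in 1 with them above, *Nfe2l2*, against 18.1%.

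The ubiquitin genes and ubiquitin-activating enzymes were not shifted in the same direction. Of the 6 genes, 1 had a log2 fold change above 0 (*Ubb*, 0.32), and their summed TPM was 7169 ± 253 and 7051 ± 856 (SD, n = 3 each). Over all tested genes, 59.3% were above 0, a share that also stands beside the counts of the lists below. *Uba6* was the furthest from 0, at -0.58 (adjusted p = 0.108). All 5 shuttle factors, which carry ubiquitylated proteins to the proteasome, were above 0, with a median of 0.18 and *Ubqln4* the furthest at 0.55 (0.28 without OSKA + 4OHT replicate 1). The COP9 signalosome, a complex built like the lid, had 8 of 9 genes above 0, a median of 0.23 and none called, with *Cops7b* the furthest at 1.25 (0.73 without OSKA + 4OHT replicate 2), and its summed TPM was 22.8% higher, at 841 ± 26.7 against 685 ± 50.4. The chaperonin CCT, another large barrel complex of the cytosol, had 5 of 8 genes above 0, a median of 0.08 and none called, with *Cct7* the furthest at -0.74 (-0.39 without OSKA + 4OHT replicate 3). Its summed TPM was 1872 ± 99.95 without 4OHT and 1879 ± 274 with it.

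Lists for other programmes and cell types were described beside the proteasome genes, and several of them held genes that differed between the groups. Over all tested genes, 59.3% had a log2 fold change above 0, 3.52% were called higher and 1.97% were called lower. All 9 interferon-stimulated genes looked at had a log2 fold change above 0, with a median of 2.61, and 4 were called higher (*Ifit1*, *Ifit3*, *Isg15* and *Usp18*). Their summed TPM ran from 1489.8 to 1521 in the OSKA − 4OHT libraries and from 2397 to 3503 in the OSKA + 4OHT libraries. These sums are mostly *B2m*, which was not called, at 1458, 1410 and 1418 TPM and at 1901, 1960 and 2903 TPM (log2 fold change 0.63, adjusted p = 0.0932, or 0.0494 without OSKA + 4OHT replicate 3). All 5 genes of cycling cells were above 0 and 4 were called higher (*Top2a*, *Plk1*, *Ccnb1* and *Cdk1*), with a summed TPM of 201 to 212 and of 409 to 494. Of the 4 epithelial markers, 3 were called higher (*Epcam*, *Cdh1* and *Krt8*), with sums of 30.1 to 69.4 TPM and 144 to 156 TPM. Of the 5 fibroblast markers, 1 was called lower (*Col1a2*), with sums of 5809 to 7628 TPM and 3750.1 to 5019 TPM. Transcripts of this list were thus present in both groups, although *Pdgfra* did not exceed 6.50 TPM. These sums are mostly *Vim*, *Col1a1* and *Col1a2*, and *Thy1* lay the other way, at 198, 208 and 133 TPM and at 222, 268 and 389 TPM, without overlap (log2 fold change 0.69, adjusted p = 0.203). Of the 5 markers of macrophages and other blood cells, 1 was called lower (*Lyz2*), with sums of 116 to 131 TPM and 71.7 to 82.5 TPM, while the leukocyte gene *Ptprc* stayed between 0.435 and 1.67 TPM. The sums are mostly *Lyz2*, and 2 of the 5 genes did not overlap between the groups, both lower, against 10.0% of all tested genes. *Cd68* lay the other way with overlap, at 17.5, 15.4 and 11.8 TPM and at 19.7, 22.1 and 15.2 TPM (log2 fold change 0.34, adjusted p = 0.47). Without OSKA − 4OHT replicate 3 the log2 fold change of *Cd68* was 0.19. Of the 3 endothelial markers, with sums of 8.66 to 12.2 TPM and 6.87 to 14.5 TPM, *Cdh5* and *Kdr* did not reach 1 TPM in any library and *Pecam1* was not called. The part of these programmes and cell types in the differences of the proteasome genes was not tested.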

How the data were processed

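RNA of 6 wells, 3 per group, was sequenced by the authors as stranded polyA libraries with single-end reads. The authors trimmed the reads with Trim Galore and quantified them with Salmon, and the table they deposited gives the TPM of each gene in each library. Versions, genome build and annotation release are not given in the sources used here, and sequencing depth cannot be read from TPM. The authors' columns of fold change, average level, F statistic and p-value were deposited beside them and were not used. A TPM value that Salmon divided between similar transcripts is uncertain, and transcripts with at least 95% identity over 100 bases were searched for with BLAST 2.17.0. Identifiers were matched to GENCODE M21 (GRCm38) for symbols and positions, and 234 of the 54331 identifiers had no symbol. Promoter windows came from RefSeq (GRCm38.p6).

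Genes whose mean reached 1 TPM were tested on log2(TPM + 0.5) with limma-trend (limma 3.58.1, R 4.3.3), two-sided, without a block, with Benjamini-Hochberg adjustment over 15382 genes. The script was tested on simulated data with 50 changed genes per size. It called 0 of 50 at a log2 change of 0.4, 9 at 1, 31 at 2 and 43 at 3. It also called 11 genes that had not been changed, and 0 genes in a run in which none was changed. Changes of the size seen in most proteasome genes were thus seldom within reach of a call. Alternatives were other pseudocounts (0.1 and 2), no filter and a filter at 5 TPM, TMM scaling (computed on the TPM table), quantile normalization, the replicate number as a block, no mean-variance trend, and each library left out in turn. All members were accounted for. Values per library are given for the activators, the catalytic subunits and their counterparts, the called genes and the largest and smallest change of each part. In other lists the called genes or, where none was called, the gene with the largest change were named. *Psmc4*, *Psmd9*, *Psmd14*, *Nfe2l1*, *Nfe2l2*, *Nfe2l3*, *Vcp*, *Maff*, *Ubb*, *Thy1*, *Cd68*, *B2m*, the low or abundant cell type markers and the similar transcripts were described outside this rule, after their values were seen, as were genes named only for not overlapping or for an unadjusted p under 0.05. In the other lists 82 genes were matched and *Paaf1* was not, and a result for a further gene is not reported here. The members and lists were chosen with earlier results of these data known. Summary statistics were computed with Python 3.11.15 and pandas 2.3.3.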

Additional observations from a re-analysis of the deposited data

How the results depend on the processing

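The median log2 fold change of all genes fell by 0.12 with TMM scaling and by 0.15 with quantile normalization, and the median of the 43 proteasome genes stayed 0.18 to 0.26 above that of all genes in the 14 alternatives. The counts of calls were less stable. Over all genes, 542 were called higher and 303 lower, against 456 and 480 with TMM scaling, 428 and 434 with quantile normalization, and 31 and 16 with the replicate block. When 1 library was left out, 112 to 318 were called higher and 63 to 147 lower. Of the proteasome genes, 2 were called higher, 3 with a mean of at least 5 TPM, 1 without the filter, and 0 with TMM scaling, quantile normalization, the replicate block or no mean-variance trend, and 0 to 0 when 1 library was left out. The number of them that were higher at an unadjusted p under 0.05 was 17, and it was 9 with TMM scaling, 10 without the trend and 10 to 19 when 1 library was left out. The core median of 0.31 was 0.18 with TMM scaling, and the base and lid median of 0.33 was 0.20 with TMM scaling and 0.24 with quantile normalization. The cause was not tested. Some genes with changes near 0 or scattered libraries changed sign. With TMM scaling *Psmb4* was at -0.0345, *Psmc6* at -0.0142 and *Psmb10* at -0.12, and with quantile normalization *Psmb10* was at -0.14. When 1 library was left out, the log2 fold change ran from -0.21 to 0.20 for *Psma3*, -0.0828 to 0.28 for *Psmb4*, -0.0519 to 0.56 for *Psmc3*, -0.13 to 0.12 for *Psmd1*, -0.0072 to 0.63 for *Psmd11*, -0.41 to 0.63 for *Psmd9*, -0.28 to 0.41 for *Psmb10* and -0.43 to 0.17 for *Nfe2l1*. Of 1064 fits of a named gene under an alternative, 964 kept both direction and side of the threshold, 74 lost the call, 7 gained it and 19 changed sign. Wells with the same replicate number deviated together with correlations of 0.024, 0.034 and 0.084, against -0.062 to 0.033 for wells with different numbers. All of these were near 0, so the numbers were not taken to pair the wells. The TPM values hold no depth, and with 3 wells per group a gene that was not called is not shown to be unchanged.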
